A study of Mus musculus with 15 samples.

Results

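Sarcomere-positive cells, the candidate cardiomyocytes (CMs) of the gastrulating mouse embryo, were described in single-cell RNA-sequencing libraries of 15 whole embryos. A cell was taken as sarcomere-positive when it held at least 1 UMI (unique molecular identifier, the tag that counts a captured RNA molecule once) of at least 4 of 10 genes, namely *Myl7*, *Tnnt2*, *Actc1*, *Myl4*, *Nkx2-5*, *Tnni1*, *Myl3*, *Ttn*, *Myh6* and *Csrp3*, called rule genes from here on. Of 93701 retained cells, 2583 passed, which is 2.76%. The controls supplied 2565 of them out of 77481 cells, and the *Mesp1* KO embryos 18 out of 16220 cells. The 4 late control embryos alone held 2327. Because the rule genes chose the cells, their levels in these cells are given as a description without a test, and they are tested only over whole embryos, where no cells are chosen.

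Libraries were prepared from the 5′ ends of transcripts of dissociated, unsorted C57/BL6 embryos. There were 12 controls, which kept at least 1 wild-type *Mesp1* allele, and 3 KO embryos with *Cre* inserted in both *Mesp1* alleles. Early embryos were E6.0 to E6.5 (5 controls and 1 KO at E6.5), middle embryos were late E6.5 to early E7.5 (3 controls and 1 KO at E7.0), and late embryos were late E7.5 to E7.75 (4 controls and 1 KO at late E7.5). The embryos carried *Smarcd3*-F6::eGFP in the *Hipp11* locus, an enhancer reporter that labels cardiac progenitor cells (CPCs), and *Mesp1*-Cre with *Rosa26R*-Ai14, a lineage reporter driven from the *Mesp1* locus itself. In the study's images of the embryos, the early E7.5 control and late E7.5 control replicate 1 are marked as lacking Ai14. With a single KO embryo per stage, variation between KO embryos was not measured.

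Cardiac mesoderm expresses the transcription factor *Mesp1* as it leaves the primitive streak and migrates forward to form the cardiac crescent. There the transcription factors NKX2-5, GATA4, TBX5 and MEF2C, with the SRF co-activator myocardin (*Myocd*), switch on the genes of the sarcomere, the contractile unit in which myosin thick filaments slide along actin thin filaments that are anchored at Z-discs. Late in gastrulation the earliest CMs differentiate while neighbouring progenitors of the juxtacardiac field, marked by *Hand1* and *Mab21l2*, and of the SHF (second heart field), marked by *Isl1* and *Tbx1*, stay undifferentiated.

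The rule genes code for thin filament proteins (*Actc1*, cardiac alpha-actin, *Tnnt2* and *Tnni1*, troponins that make contraction calcium-dependent), thick filament proteins (*Myh6*, a cardiac myosin heavy chain, and the light chains *Myl7*, *Myl4* and *Myl3*), titin (*Ttn*, the spring that spans the half-sarcomere), the Z-disc protein *Csrp3* and the transcription factor *Nkx2-5*. SRF binds the CArG box, and 3 of the 13 RefSeq transcription starts of the rule genes held a CArG box in the preceding 250 bases, against 482 of 32851 starts (1.47%) over all genes. The 3 sequences that held a CArG box are shown. Each runs 5′ to 3′ on the strand of the gene and ends at the base before the RefSeq start (GRCm38.p6, the same coordinates as mm10), with the CArG box in capitals.

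*Actc1*, chr2:114052876-114053025, minus strand: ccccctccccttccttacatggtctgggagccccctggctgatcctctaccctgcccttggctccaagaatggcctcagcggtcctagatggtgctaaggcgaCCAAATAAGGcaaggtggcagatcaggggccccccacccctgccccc

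*Myl3*, chr9:110763528-110763677, plus strand: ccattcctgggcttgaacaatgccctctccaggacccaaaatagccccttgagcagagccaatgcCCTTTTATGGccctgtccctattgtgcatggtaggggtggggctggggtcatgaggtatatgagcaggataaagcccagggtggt

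*Myl7*, chr11:5898783-5898932, minus strand: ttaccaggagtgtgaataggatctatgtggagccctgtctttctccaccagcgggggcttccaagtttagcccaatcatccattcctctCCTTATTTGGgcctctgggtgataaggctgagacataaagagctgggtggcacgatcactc

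The boxes lay 47 to 38, 85 to 76 and 61 to 52 bases before the start in *Actc1*, *Myl3* and *Myl7*. An NKX2-5 motif, AAGTG on either strand, was found before 5 of the 13 starts (*Csrp3*, *Myh6*, *Myl4*, *Myl7* and *Tnni1*), near the 40.7% of all starts. A GATA motif, AGATAA on either strand, was found before *Tnnt2* alone (9.99% of all starts), and a MEF2 motif before *Ttn* alone (1.69%). TATAAA on the strand of the gene was found before none of the 13, against 7.59% of all. These matches describe letters in a window and not bound sites.

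The *Mesp1* transcript itself followed the genotype labels. Over all cells it was counted with 0, 1 and 5 UMIs in the E6.5, E7.0 and late E7.5 KO embryos, at most 0.0970 counts per 1000000 UMIs (CPM). Controls ranged from 118 to 194 CPM in early embryos and from 49.4 to 141 CPM in middle embryos. Among late controls, late E7.5 control replicate 1 stood apart with 60.4 CPM, while the other late controls had 3.21, 4.55 and 12.3 CPM.

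Sequencing depth differed widely and touches every count of cells below. Library totals ran from 13058356 to 379177866 UMIs, and the median cell held 3827 UMIs in the late KO embryo and 3925 in E7.75 control replicate 1, both of experiment 5, against 14063 to 34415 in the others. In the late controls sarcomere-positive cells were deeper than the other cells of their embryo, with median UMIs of 30230 against 19509 in late E7.5 control replicate 1, 25299 against 13315 in late E7.5 control replicate 2, 4257 against 3909 in E7.75 control replicate 1 and 30970 against 18975 in E7.75 control replicate 2. The part of depth in single calls was followed by thinning each cell to 2000 UMIs. Of the retained cells, 9788 carried a barcode that also occurred in another library, 275 of them sarcomere-positive, and 8 of these shared it with a sarcomere-positive cell elsewhere.

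The number of rule genes per cell separated 3 late controls from all other embryos. All 10 rule genes were detected in 190 cells of late E7.5 control replicate 2, in 108 cells of E7.75 control replicate 1 and in 30 cells of E7.75 control replicate 2. Cells with 7 or more made up 375 of 933 (40.2%), 382 of 638 (59.9%) and 126 of 633 (19.9%) sarcomere-positive cells of these embryos. In late E7.5 control replicate 1, 95 cells had 4, 26 had 5 and 2 had 6 rule genes, and none had more. In the early E7.5 control, 117 cells had 4, 50 had 5, 7 had 6 and 1 had 8. In the late KO embryo, 11 cells had 4 and 1 had 5. Just inside and outside the threshold, late E7.5 control replicate 2 held 304 cells with 4 and 712 with 3 rule genes, E7.75 control replicate 1 held 96 and 169, and E7.75 control replicate 2 held 261 and 563.

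**Figure D1:**
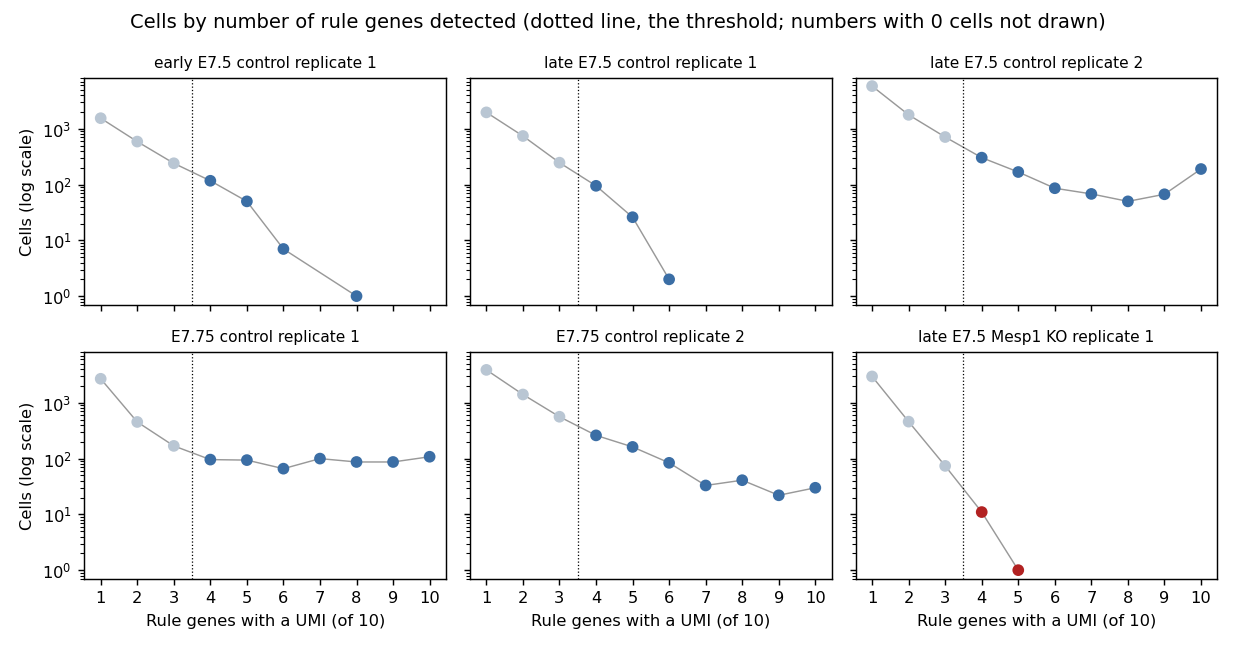
Cells (y axis, log scale) by the number of the 10 rule genes with a UMI (x axis) in 6 embryos. The dotted line marks the threshold, grey points are cells below it and coloured points the sarcomere-positive cells (blue, control; red, KO). The cells reach all 10 genes in 3 late controls, with 190, 108 and 30 cells, and stop at 6 in late E7.5 control replicate 1 and at 5 in the late KO embryo.

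The markers of the label CM are the rule genes themselves, so their shares describe the chosen cells and are no support for the label. In late E7.5 control replicate 1, 99.2% of the sarcomere-positive cells had *Myl7*, 56.1% *Tnnt2* and 35% *Nkx2-5*, but 3.25% had *Ttn* and none *Myh6*. *Ttn* was detected in 39.5% of the cells of late E7.5 control replicate 2, in 47.0% of E7.75 control replicate 1 and in 20.1% of E7.75 control replicate 2. When every cell was thinned to 2000 UMIs, 932 cells passed the rule. Of these, 371 were in late E7.5 control replicate 2, 430 in E7.75 control replicate 1, 127 in E7.75 control replicate 2, 2 in the early E7.5 control and 2 in the late KO embryo, and no other embryo kept any. For this reason the cells are called sarcomere-positive and not CMs.

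The share of sarcomere-positive cells was low in early controls and highest in late controls. It lay between 0% and 0.392% in the 5 early controls. Middle controls had 0.141% at late E6.5, 0.735% at E7.0 and 2.99% at early E7.5 (95% exact Clopper-Pearson interval 2.57 to 3.45%). Late controls had 1.82% (1.51 to 2.16%) and 4.19% (3.93 to 4.46%) at late E7.5, and 4.29% (3.97 to 4.62%) and 4.72% (4.37 to 5.09%) at E7.75. The early E7.5 control thus lay above late E7.5 control replicate 1. In E6.0 control replicate 2, 0 of 288 cells passed, which allows a share of up to 1.04%. All such intervals and limits cover counting error only.

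Over embryos, the share was 0.242% ± 0.192 (SD, n = 5) in early, 1.29% ± 1.5 (SD, n = 3) in middle and 3.75% ± 1.31 (SD, n = 4) in late controls. Late controls exceeded early and middle controls by 3.12 percentage points (exact two-sided permutation test over 12 embryos, p = 0.0040, 0.0020 being the smallest the design allows). On thinned cells the difference was 1.61 points (exact permutation, p = 0.018). Experiment 7 alone held controls of all stages, with 0.376%, 0.141%, 0.735% and 2.99% before late E7.5 and 1.82% and 4.72% after. There the groups overlapped and the difference of 2.21 points did not pass (exact permutation, p = 0.20, smallest possible 0.067).

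**Figure D2:**
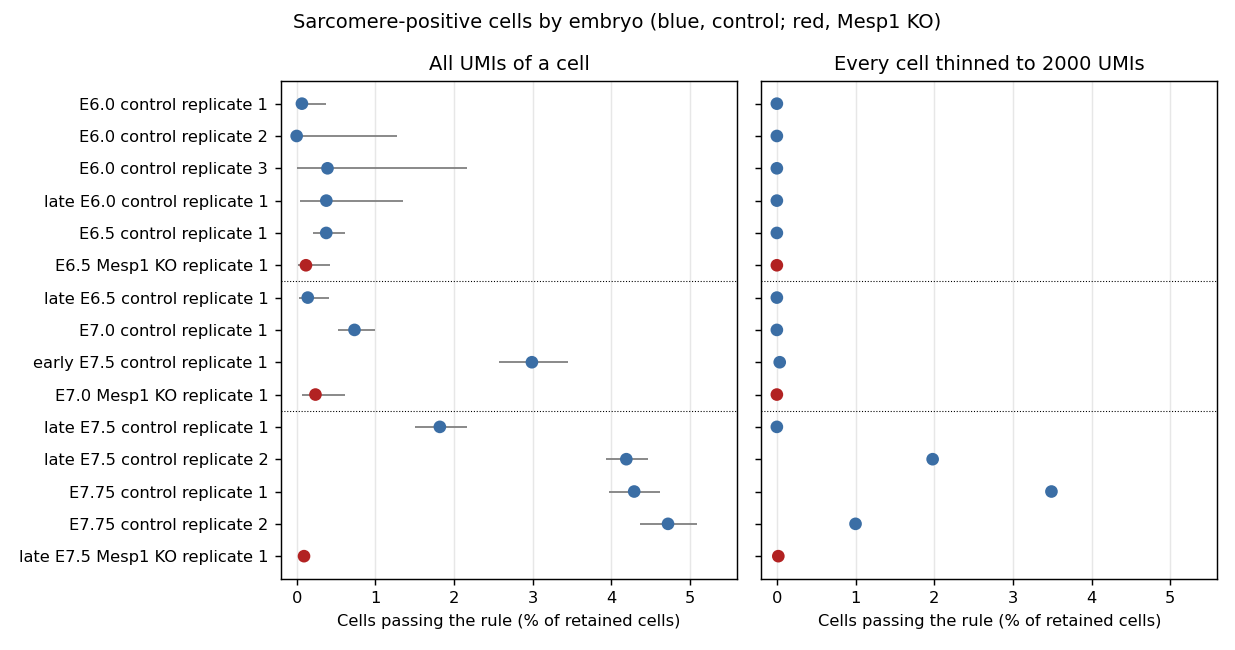
Sarcomere-positive cells as a percentage of the retained cells of each embryo, for all UMIs (left, with exact 95% intervals) and for cells thinned to 2000 UMIs (right, without). Blue points are controls and red points KO embryos. With all UMIs, the late controls range from 1.82% to 4.72% and the late KO embryo is at 0.0934%. After thinning, 3 late controls stay highest, up to 3.49%.

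As a measure of background, visceral endoderm cells were examined. These cells (at least 6 of 8 markers detected) were taken to lack a sarcomere, and between 0% and 1.37% of them passed the rule. The highest were 16 of 1165 in E7.75 control replicate 2 (median 20818 UMIs) and 29 of 2591 (1.12%) in late E7.5 control replicate 2 (median 22908 UMIs). The rule gene *Myl3* was detected in 3.61% and 8.92% of the visceral endoderm cells of these embryos. Of all cells that did not pass there, 4.51% and 4.45% had it. In the 5 early controls 0 of 257, 65, 534, 66 and 138 visceral endoderm cells passed. In the E6.5 KO embryo 1 of 208 (0.481%) did, which was 1 of its 2 sarcomere-positive cells, and both of these held 3 or more definitive endoderm markers. Some sarcomere-positive cells also held 3 or more markers of another cell type. In the 4 late controls, 0.313% to 13.8% did so for visceral endoderm, 0% to 5.04% for blood, 0.313% to 7.32% for endothelium and 3.76% to 47.6% for the parietal endoderm list, whose matrix genes were found in 2.34% to 23.9% of the other cells too. The summed visceral endoderm markers were at 61.8 to 761 CPM in sarcomere-positive cells, against 1123 to 3721 CPM in other cells. Leaving out each cell with 3 markers of another type kept 1484 of the 2583 cells, and 2078 without use of the parietal endoderm list. Whether these cells are doublets was not tested.

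Rule gene levels in these cells differed widely between late control embryos. In the order late E7.5 control replicates 1 and 2, then E7.75 control replicates 1 and 2, sarcomere-positive cells had 322, 2940, 11200 and 1176 CPM of *Myl7*, the atrial light chain that is on throughout the early heart tube. *Actc1* had 60.7, 2282, 2646 and 341 CPM in the same embryos. *Ttn* had 1.10, 392, 585 and 56.2 CPM. *Nkx2-5* varied least of these 4 genes, with 22.6, 178, 204 and 117 CPM. For each of these genes E7.75 control replicate 1 was highest and late E7.5 control replicate 1 lowest.

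The other structural genes kept the same order. *Tnnt2* was at 46.4, 731, 1705 and 269 CPM, *Tnni1* at 55.5, 547, 1127 and 195 CPM, and *Myl4* at 35.9, 979, 3104 and 293 CPM. *Myh6*, *Myl3* and *Csrp3* were at most 3.04 CPM in late E7.5 control replicate 1. *Myh6* had 0, 197, 442 and 14.7 CPM, *Myl3* 0.276, 166, 607 and 16.7 CPM, and *Csrp3* 3.04, 114, 247 and 40.2 CPM. In the other cells of late E7.5 control replicate 1, *Myl3* was at 0.876 CPM and *Csrp3* at 0.0615 CPM.

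In late E7.5 control replicate 2 the sarcomere-positive cells held most of the embryo's sarcomere RNA, with 94.9% of all *Actc1* UMIs, 94.4% of *Ttn* and 91.7% of *Myl7*, but 69.4% of *Myl3* and 62.3% of *Nkx2-5*. In late E7.5 control replicate 1 they held 12.4% of *Myl7*, and 31.7% of the other cells there also had a *Myl7* UMI.

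Few sarcomere-positive cells were found in *Mesp1* KO embryos, but only the late KO embryo lay below all controls of its stage. The E6.5 KO embryo had 2 of 1693 (0.118%), the E7.0 KO embryo 4 of 1674 (0.239%) and the late KO embryo 12 of 12853 (0.0934%, exact 95% interval 0.0483 to 0.163%). The late KO embryo lay 3.66 points below the late control mean, 2.79 times the SD of the 4 late controls, and below each of them. On cells thinned to 2000 UMIs the gap was 1.60 points, 1.08 times the SD, and the late KO embryo (2 of 10727 cells, 0.0186%) was no longer below late E7.5 control replicate 1 (0 of 6475, which allows up to 0.0463%). The E6.5 and E7.0 KO embryos lay within the ranges of their stages, 0% to 0.392% and 0.141% to 2.99%. E7.75 control replicate 1, from the same experiment and of like depth, had 4.29%. Over the 3 stages the KO share was 1.61 points lower, which did not pass the threshold (exact two-sided permutation within stages over 15 embryos, p = 0.075, smallest possible 0.0083). On thinned cells the difference was -0.537 points (exact permutation, p = 0.50), and without the late KO embryo it was -0.586 points. In experiment 8 the E6.5 KO embryo (0.118%) could be set beside E6.0 control replicate 3 (0.392%) and the late E6.0 control (0.377%), and no middle control belonged to that experiment.

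The 12 sarcomere-positive cells of the late KO embryo held UMIs of 7 of the 10 rule genes. Their median was 7133 UMIs, against 3826 in the other cells. They had 24 UMIs of *Tnnt2* (282 CPM, exact Poisson interval 180 to 419), 22 of *Myl7* (258 CPM, 162 to 391), 18 of *Tnni1* (211 CPM) and 14 of *Myl4* (164 CPM). *Actc1* and *Csrp3* had 3 UMIs each (35.2 CPM, 7.26 to 103) and *Myl3* had 1 (11.7 CPM, 0.297 to 65.4). No UMI of *Nkx2-5*, *Ttn* or *Myh6* was counted, which allows up to 35.2 CPM each (3 counts) or 43.3 CPM at the upper end of the exact interval. The lowest late control lay under these limits for each of the 3 genes, at 22.6, 1.10 and 0 CPM.

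Because these 12 cells held 4 to 5 rule genes, other genes were set beside late control cells with the same number, again in the order late E7.5 control replicates 1 and 2 and E7.75 control replicates 1 and 2. *Hand1* had 66 UMIs (599 to 985 CPM), and the control cells had 547, 558, 221 and 602 CPM. *Krt8*, a keratin of simple epithelia, was at 1197 CPM (976 to 1453), and the control cells at 828, 889, 402 and 1069 CPM. *Anxa2* was at 211 CPM (125 to 334), against 99.4, 155, 47.1 and 137 CPM, and *Bmp4* at 129 CPM (64.4 to 231), against 113, 122, 62.1 and 121 CPM. For each of these genes at least 1 control lay inside the interval of the KO cells. E7.75 control replicate 1, of the same experiment and like median library depth, lay below that interval for all 4. Its cells with 4 to 5 rule genes were shallower than the KO cells. *Gata5* had no UMI (exact interval up to 43.3 CPM), and the controls were at 43.0, 67.0, 73.9 and 70.6 CPM, 1 of them inside the interval. *Smarcd3* had no UMI either, with controls at 136, 19.8, 42.9 and 99.7 CPM, 2 of them inside. The eGFP transgene also had no UMI, and since that upper end lies within the 28.1 to 50.2 CPM of all sarcomere-positive cells in late controls, a difference was not detectable at this depth. Markers of definitive endoderm were also present. Of the 12 cells 2 (16.7%) held 3 or more of them. Their summed level was 293 CPM, against 19.9 to 68.4 CPM in the sarcomere-positive cells of late controls and 433 CPM in the other cells of the KO embryo, and their part in these values was not tested. Of the 12 cells, 7 (58.3%) had an Ai14 UMI, against 7.42% of the other cells of that embryo, and at 2000 UMIs 2 of 12 (16.7%) against 3.81%. These values come from a single embryo and carry counting error only.

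**Figure D3:**
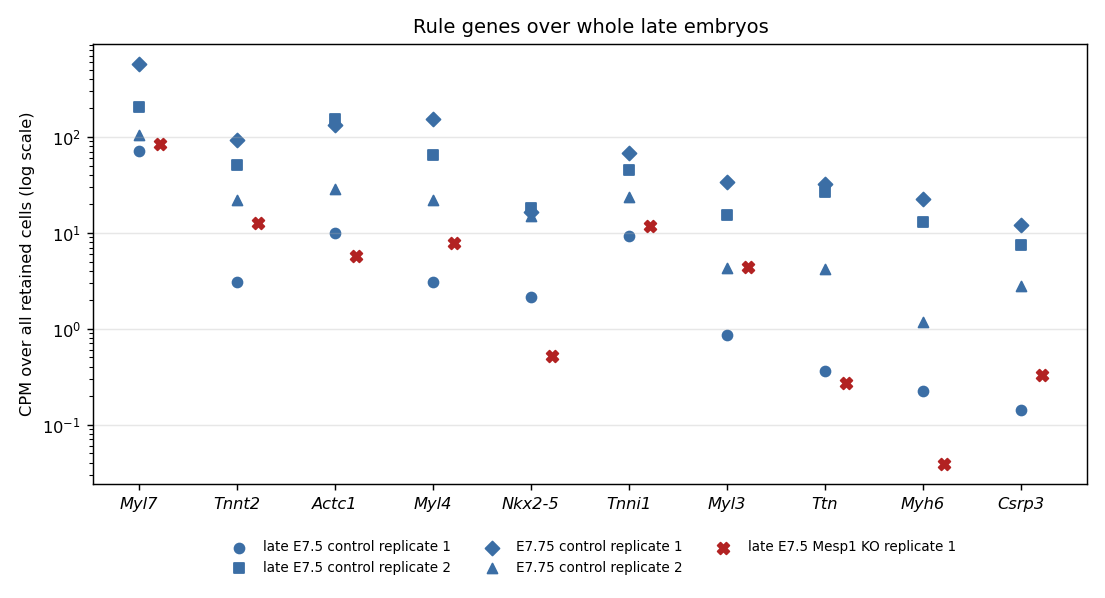
CPM (y axis, log scale) of each rule gene over all retained cells of the 4 late controls (1 symbol per embryo) and the late KO embryo. *Nkx2-5*, *Actc1*, *Myh6* (2 UMIs) and *Ttn* (14 UMIs) are lower in the KO embryo than in each control, without regard to counting error. *Myl7*, at 84.5 CPM, lies within the controls' range of 70.2 to 572 CPM.

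Over whole embryos, where no choice of cells enters, all 10 rule genes lay below the fitted late control mean in the late KO embryo, with a median log2 ratio of -3.16, while the median of all genes was -0.05. The rule gene median was -2.17 without E7.75 control replicate 1 and -4.40 with experiment as a covariate. In such sums fewer cells of a type and less RNA per cell cannot be told apart. *Nkx2-5* was at 0.524 CPM, against 2.15, 18.1, 16.6 and 15 CPM in the late controls. *Actc1* was at 5.66 CPM against 9.81, 153, 131 and 28.7 CPM. *Ttn* had 14 UMIs, 0.272 CPM, against 0.359, 26.4, 31.8 and 4.16 CPM, and whether it differs from the first of these beyond counting error was not tested. *Myh6* had 2 UMIs, 0.0388 CPM, against 0.224, 13, 22.4 and 1.16 CPM. Late E7.5 control replicate 1 came nearest to the KO embryo for each of these 4 genes. *Myl7*, *Tnnt2*, *Myl4*, *Tnni1*, *Myl3* and *Csrp3* lay within the range of the late controls, above late E7.5 control replicate 1.

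None of the rule genes passed the test in that comparison (edgeR quasi-likelihood test, Benjamini-Hochberg adjusted p from 0.485 for *Nkx2-5* to 0.823 for *Tnnt2*), and 4 of them had an unadjusted p under 0.05. Among all genes tested, 0.0328% were called higher and 0% lower (6 of 18290 and none), with 1412 at an unadjusted p under 0.05. Without E7.75 control replicate 1, the only late control of the same experiment, 338 were called (318 higher and 20 lower). With 1 late KO embryo, the spread in this test comes from other embryos and the KO embryo is assumed to vary like them. DESeq2, which called 0.432% of 16892 genes higher and 0.332% lower, called 3 rule genes lower, *Myh6*, *Nkx2-5* and *Ttn*. Of 185 tested genes of the 13 program lists described below, edgeR called 0, and 36 had an unadjusted p under 0.05. Of 195 list genes tested by DESeq2, 6 were higher and 2 lower. The log2 ratio to E7.75 control replicate 1, the older control of the same experiment, was -4.98 for *Nkx2-5*, -6.87 for *Ttn*, -4.53 for *Actc1* and -2.76 for *Myl7*.

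The CPC reporter eGFP marked sarcomere-positive cells more often than other cells. In the order used above, 49.6%, 47.4%, 11.9% and 58.6% of sarcomere-positive cells had an eGFP UMI, against 10.1%, 9.14%, 2.13% and 12% of the other cells. At 2000 UMIs per cell the shares were 6.5%, 5.78%, 5.33% and 9.19%, against 1.5%, 1.23%, 1.05% and 1.37%, with E7.75 control replicate 1 still the lowest of the 4. Ai14 was found in 68.3%, 12.9% and 77.6% of the sarcomere-positive cells of the 3 late controls that carried it, against 17.9%, 4.30% and 21.5% of other cells. At 2000 UMIs per cell these shares were 12.3%, 5.51% and 12.8%, against 4.06%, 2.14% and 3.75%. In late E7.5 control replicate 1, which lacked Ai14, both sets had 2.44%, the background of that count.

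Other genes were compared between sarcomere-positive cells and all other cells of the same 4 late controls, with UMIs summed per embryo and set. Of 16390 genes tested, 13.6% were higher and 14.6% lower in sarcomere-positive cells (edgeR, adjusted p under 0.05, embryo as block, n = 4 embryos). These 4635 calls fell to 2071 without late E7.5 control replicate 2, to 2363 without E7.75 control replicate 2 and to 1279 without the block. The median of all genes was -0.01 on the log2 scale. The cells had been chosen on sarcomere genes, so genes that share their cells follow from the choice, and the lists below, chosen with earlier results of these data known, describe which ones did.

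The contractile apparatus beyond the rule genes was higher almost throughout. Of the thin filament genes 8 of 10 were higher and none lower (median log2 3.58), of the thick filament genes 9 of 10 (4.70), and of the Z-disc and cytoskeletal genes 15 of 15 (3.73). *Tnnc1*, the calcium-binding troponin, had 15.5, 409, 1521 and 132 CPM in sarcomere-positive cells, against 3.65, 5.74, 8.31 and 5.41 CPM in other cells (log2 5.42 ± 0.82 SE, edgeR adjusted p = 0.0024). *Acta2*, a smooth muscle actin used in the first CMs, had 226, 1485, 1081 and 581 CPM against 15.2, 89.3, 48.3 and 42.9 CPM (log2 4.11 ± 0.11 SE, edgeR adjusted p = 3.04e-06). The sets did not overlap in either gene, and the share of all tested genes without overlap was not counted. *Tnni3*, the mature cardiac troponin I, did not pass (log2 2.53, edgeR adjusted p = 0.067), with 1.66, 8.03, 49.8 and 0.817 CPM.

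Further thick filament and Z-disc genes also differed between embryos, and late E7.5 control replicate 1 was lowest in each of the 5 whose levels follow. *Myh7*, the slow myosin heavy chain, had 0, 127, 333 and 12.9 CPM (log2 4.56). *Mybpc3*, which ties myosin to titin, had 0, 23.4, 41.0 and 2.78 CPM, against at most 0.237 CPM in other cells. *Ankrd1*, a titin-bound stress sensor, had 1.10, 192, 510 and 13.8 CPM (log2 7.79), and *Nebl*, a nebulin relative of the Z-disc, 20.1, 207, 261 and 74.8 CPM (log2 5.44). *Smyd1*, a methyltransferase for myofibril assembly, rose by log2 5.25 and *Cryab*, a chaperone of desmin and titin, by 3.73. *Actn2*, alpha-actinin, had 0.828, 24.8, 31.5 and 2.23 CPM (log2 2.97, edgeR adjusted p = 0.036), with the first of these embryos below its other cells at 1.44 CPM.

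Of 16 calcium handling and excitation genes tested, 11 were higher and 1 was lower (median log2 2.69). *Slc8a1*, the sodium-calcium exchanger needed for the first calcium transients, had 0, 32.0, 24.7 and 6.10 CPM against at most 0.369 CPM (log2 5.52). *Ryr2*, the calcium release channel, rose in all 4 embryos, to 4.42, 21.2, 23.0 and 16.0 CPM (log2 4.78). *Hcn4*, a pacemaker channel, was at 0.276 to 3.05 CPM (log2 3.44), which are low counts. *Atp2a2*, the calcium pump SERCA2, was already abundant in other cells, at 34.6 to 83.1 CPM, and rose by log2 0.92. *Gja1*, connexin 43, was the gene that fell, by 0.70 on the log2 scale and in 4 of 4 embryos (47.4 to 77.3 CPM against 103 to 117 CPM).

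**Figure D4:**
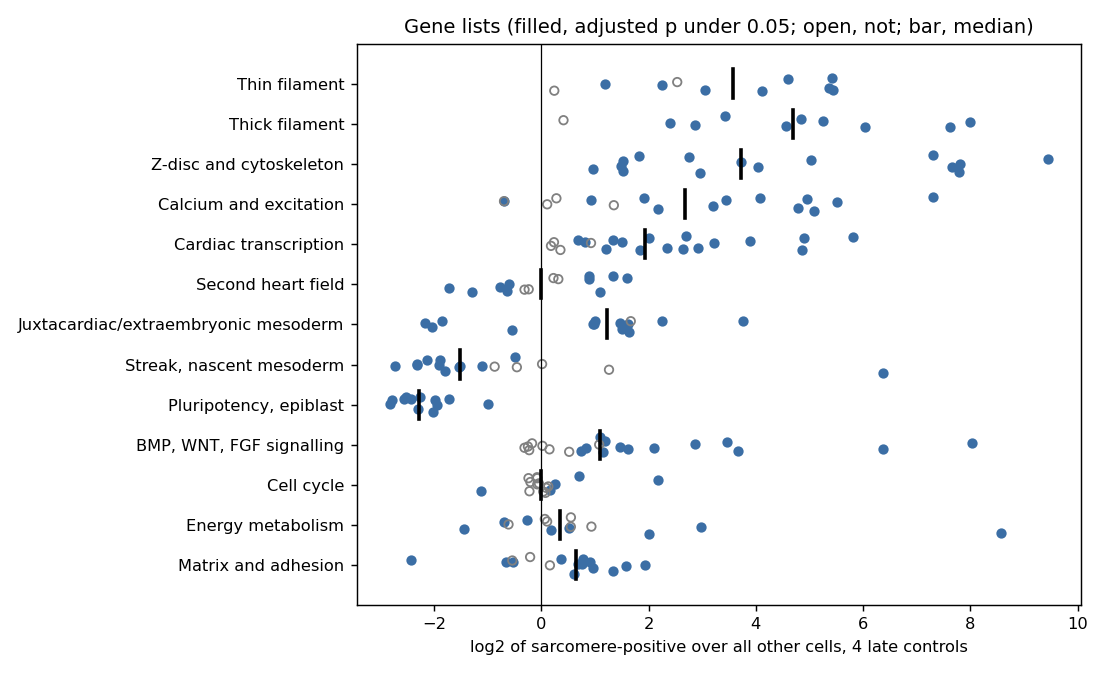
The log2 ratio of sarcomere-positive over all other cells of the 4 late controls (x axis) for each gene of the program lists (rows). Filled points passed an adjusted p under 0.05, open points did not, and bars are medians. Sarcomere lists have medians of 3.58 to 4.70, and the pluripotency list, with 12 of 12 genes lower, one of -2.28.

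Of 20 cardiac transcription genes 16 were higher and none lower (median log2 1.92). *Myocd* had 4.42, 69.7, 69.8 and 35.3 CPM against 0.415, 0.894, 1.03 and 0.651 CPM (log2 5.80 ± 0.37 SE, edgeR adjusted p = 7.44e-05). *Tbx5*, a T-box factor of the first heart field, had 11.3, 38.9, 31.2 and 25.2 CPM against 1.05, 1.02, 1.2 and 0.584 CPM (log2 4.90). *Mef2c*, a MADS-box activator of muscle genes, rose by log2 4.87 and *Gata5*, a zinc finger factor of the heart-forming region, by 3.88, from 4.55 to 8.51 CPM in other cells to 44.4 to 121 CPM. In each of these genes all 4 sarcomere-positive sets lay above all 4 other sets, and late E7.5 control replicate 1 was lowest. How many of all tested genes separated in this way was not counted.

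*Smarcd3*, the chromatin remodelling subunit whose enhancer drives the eGFP reporter, had 137, 47.5, 54.2 and 156 CPM against 25.6, 3.95, 4.29 and 18.6 CPM (log2 3.22). *Gata6* rose by log2 2.35, *Gata4* by 1.84, *Tbx20* by 2.93 and *Hand2* by 2.65. *Tbx2* and *Tbx3*, T-box repressors of chamber genes, did not pass, with log2 0.93 and 0.18 (edgeR adjusted p = 0.18 and 0.53).

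Progenitor genes split. Of 14 SHF genes 5 were higher (*Isl1*, *Tbx1*, *Fgf10*, *Foxf1* and *Nr2f2*), 5 lower (among them *Eya1*, *Hoxb1* and *Osr1*) and 4 did not pass. *Isl1*, a LIM-homeobox factor of the SHF, had 35.1, 54.2, 29.1 and 48.0 CPM against 15.7, 19.8, 11.8 and 21.7 CPM (log2 1.34). *Hoxb1*, of the posterior SHF, fell by 0.76 on the log2 scale. Of 14 juxtacardiac and extra-embryonic mesoderm genes 9 were higher and 4 lower (*Hoxa10*, *Hoxa11*, *Tbx4* and *Tagln2*, of which the *Hox* genes and *Tbx4* mark the allantois). *Mab21l2*, which marks the juxtacardiac field, had 0.552, 20.5, 16.3 and 14.6 CPM against 0.361, 1.11, 1.58 and 0.905 CPM (log2 3.76).

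*Hand1* had 541, 373, 109 and 455 CPM in sarcomere-positive cells against 147, 137, 71.0 and 137 CPM (log2 1.51 ± 0.19 SE, edgeR adjusted p = 0.00098). *Bmp4* rose by log2 1.62, *Foxf1* by 1.59, *Anxa2* by 1.64 and *Krt8* by 1.0, but *Foxf1* was lower than in other cells in E7.75 control replicate 1. The rule was also applied to 2000 UMIs of each cell, which keeps the cells richest in sarcomere RNA. Cells with at least 2000 UMIs that passed only on all their UMIs then counted among the other cells. No cell of late E7.5 control replicate 1 passed then, so this fit left that embryo out. *Foxf1* (log2 -0.75, edgeR adjusted p = 0.00246) turned to the other direction. *Hand1* took a negative value without passing (-0.20, edgeR adjusted p = 0.207). *Bmp4* (0.23) and *Krt8* (0.15) no longer passed, and *Anxa2* (0.37) still did. The SHF genes *Tbx1* (-0.97), *Fgf10* (-0.10) and *Nr2f2* (-0.28) also took negative values without passing (edgeR adjusted p = 0.0711, 0.848 and 0.428).

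The same split is visible along the number of rule genes detected, given as a description since that number was the rule. In late E7.5 control replicate 2, *Hand1* was at 116 CPM in cells with 1 or no rule gene, 404 with 3, 558 with 4 to 5, 365 with 6 and 114 with 7 to 10. In E7.75 control replicate 2 it was at 117, 349, 602, 306 and 60.4 CPM, and in E7.75 control replicate 1 at 60.4, 314, 221, 44.3 and 59.3 CPM. *Hand1* was thus highest in cells with 3 to 5 rule genes and low in cells with most of them, in all 3 embryos. *Bmp4*, a growth factor that promotes cardiac fate, fell in the same way from 122, 62.1 and 121 CPM with 4 to 5 rule genes to 37.5, 17.6 and 40.7 CPM with 7 to 10.

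Other regulators were highest where most rule genes were present. In the same 3 embryos *Tbx5* was at 13, 17.1 and 6.23 CPM with 4 to 5 rule genes and at 81.4, 41.7 and 80.3 CPM with 7 to 10. *Mef2c* went from 27.0, 26.8 and 27.7 CPM to 218, 112 and 244 CPM, and *Myocd* from 6.45, 26.8 and 6.79 CPM to 166, 92.8 and 126 CPM. *Tdgf1*, the Nodal co-receptor Cripto, was nearly absent below 6 rule genes, with 0.331, 3.21 and 0.243 CPM at 4 to 5, and reached 150, 76.4 and 34.8 CPM at 7 to 10. *Isl1* showed no such order, with 53.1, 41.8 and 37.6 CPM at 4 to 5 and 48.5, 23.5 and 66.2 CPM at 7 to 10. Median depth with 4 to 5 and with 7 to 10 rule genes was 26478 and 23596 UMIs in late E7.5 control replicate 2. It was 4670 and 4054 in E7.75 control replicate 1 and 31078 and 30913 in E7.75 control replicate 2. The part of depth in these orders was not tested.

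**Figure D5:**
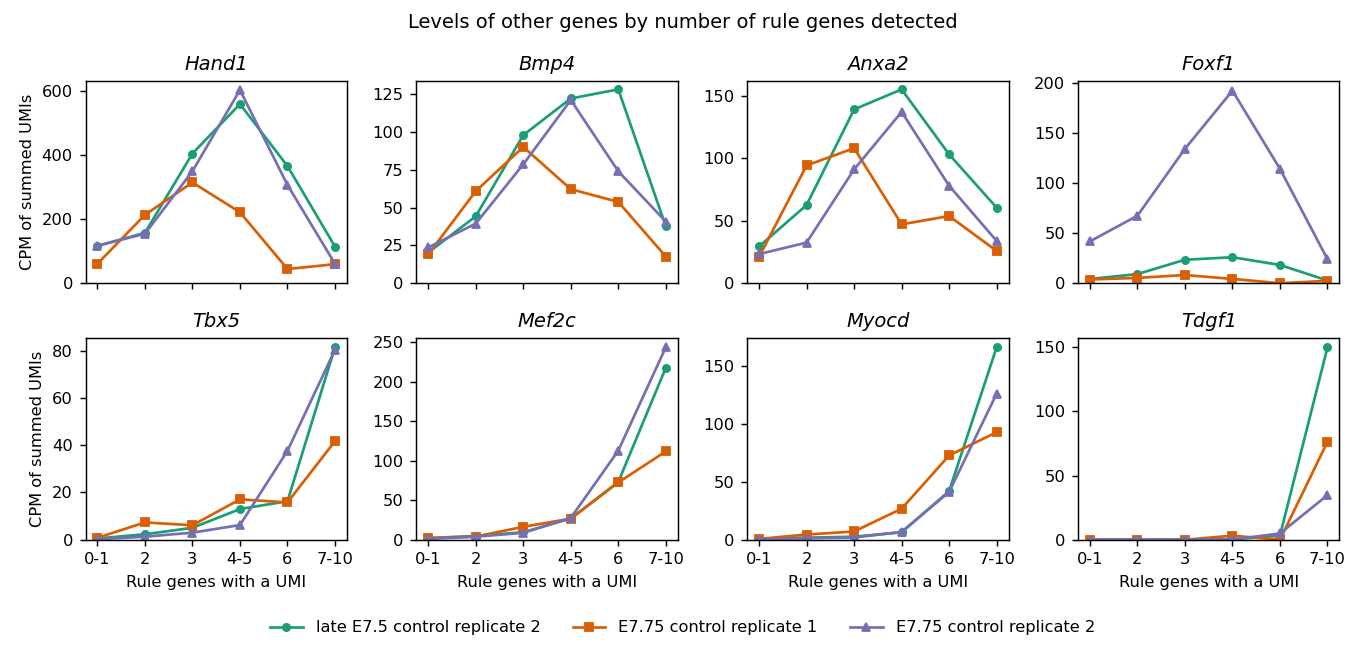
CPM of summed UMIs (y axis) of 8 genes outside the rule, by the number of rule genes with a UMI (x axis), in the 3 late controls with cells that hold 7 or more (1 line each). *Hand1*, *Bmp4*, *Anxa2* and *Foxf1* peak at 3 to 6 rule genes, and *Tbx5*, *Mef2c*, *Myocd* and *Tdgf1* are highest at 7 to 10. *Foxf1* is low throughout in E7.75 control replicate 1.

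Of 21 signalling genes 13 were higher and none lower (median log2 1.08). The BMP ligands *Bmp2* and *Bmp5* rose by log2 2.11 and 2.86, with *Bmp2* at 63.2, 74.0, 35.6 and 75.5 CPM against 18.3, 16.9, 8.34 and 17.3 CPM. *Wnt2*, a ligand of the inflow region, rose by 3.66 and *Sfrp5*, a secreted WNT antagonist of the crescent, by 3.47. *Fgf8*, which maintains progenitors, did not pass (log2 0.32, edgeR adjusted p = 0.56), lower than in other cells in late E7.5 control replicate 1 (16.3 against 48.6 CPM) and higher in the remaining embryos.

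Of 16 streak and nascent mesoderm genes 11 were lower and 1 higher (median log2 -1.53). *Mesp1* fell by 1.79 on the log2 scale, with 27.0, 0.746, 2.03 and 2.01 CPM against 61.4, 3.37, 4.68 and 13.1 CPM. *Mixl1*, a homeobox gene of the streak, fell by 2.72. The exception was *Tdgf1*, at 4.97, 56.7, 45.1 and 7.90 CPM against 2.85, 0.0864, 0.0678 and 0.0941 CPM (log2 6.37 ± 1.34 SE, edgeR adjusted p = 0.0099). Of the pluripotency and epiblast genes 12 of 12 were lower (median log2 -2.28), among them *Pou5f1* by 2.02, *Nanog* by 2.83 and *Sox2* by 2.27.

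Calls in the cell cycle list lay near the share over all genes, 13.6% higher and 14.6% lower. Of its 16 genes 4 were higher, 1 was lower and 11 did not pass (median log2 -0.01). *Cdkn1c*, the CDK inhibitor p57, was the large change, with 361, 713, 1128 and 605 CPM against 136, 185, 126 and 161 CPM (log2 2.17 ± 0.24 SE, edgeR adjusted p = 0.00061). *Cdk1* rose by log2 0.25, and *Mki67*, a proliferation marker, did not pass (0.09). Of 14 energy genes 5 were higher and 3 lower. *Ppargc1a*, a co-activator of mitochondrial biogenesis, rose by log2 2.97 from low counts, and *Slc2a3*, a glucose transporter, fell by 1.45. Of 16 matrix genes 10 were higher and 3 lower, with the cardiac jelly genes *Vcan* and *Has2* up by log2 1.92 and 1.59.

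Outside the lists, the largest increases that were seen in all 4 embryos and reached 20 CPM were those of *Pgam2*, *Ccdc141*, *Thbs4*, *Fbxl22*, *Sh3bgr*, *Hspb2*, *Cnn1*, *Myl1*, *Rcsd1* and *Tdo2*. *Tdo2* (log2 3.45) was at -0.50 and did not pass with cells chosen on 2000 UMIs, a fit without late E7.5 control replicate 1. *Pgam2*, the muscle phosphoglycerate mutase, had 3.59, 84.0, 241 and 19.7 CPM (log2 5.43). *Cnn1*, calponin, rose by log2 4.26. The largest decreases were those of the globins *Hba-x*, *Hbb-bh1*, *Hbb-b1* and *Hbb-y* and the yolk sac endoderm genes *Apoc2*, *Ttr*, *Rbp4*, *Apoa1*, *Apoa4* and *Afp*, with *Ttr* at 22.9, 232, 54.9 and 104 CPM against 1046, 1106, 505 and 827 CPM. These are defining genes of blood and visceral endoderm, cell types present in the other set. Without cells that held 3 markers of another type, *Hbb-y* went from log2 -3.14 to 0.20 and no longer passed. *Hbb-y* is itself among the blood markers that left those cells out, so this value is tied to that choice.

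A narrower reference, by the study's reporter, was the 3068 eGFP-positive cells of the late controls with 1 or no rule gene. RNA of blood and yolk sac endoderm genes was also measured in these cells, and its part in the differences was not tested. They had the globins *Hba-x* and *Hbb-bh1* at 1121 ± 1740 and 1744 ± 2473 CPM and the yolk sac endoderm gene *Ttr* at 697 ± 474 CPM (SD, n = 4), which were among the largest decreases (log2 -4.55, -4.16 and -2.77). Without cells that held 3 markers of another type *Ttr* was at log2 0.11. *Ttr* is itself among those markers, so this value is tied to that choice. Against the eGFP-positive cells, 9.84% of 14031 genes were higher and 8.58% lower in sarcomere-positive cells (edgeR, adjusted p under 0.05, n = 4 embryos). The 2585 calls fell to 783 without late E7.5 control replicate 2, to 836 without E7.75 control replicate 2 and to 147 without the embryo block. Both sets were chosen on the rule genes, so differences in other sarcomere genes follow from the choice and describe it. Of the sarcomere lists, 8 of 10 thin filament, 8 of 10 thick filament and 14 of 15 Z-disc genes were higher and none lower. *Cryab* had 29.8, 164, 238 and 66.1 CPM against 2.03, 8.37, 11.8 and 3.73 CPM (log2 4.29 ± 0.09 SE, edgeR adjusted p = 1.82e-06), and *Nebl* rose by log2 5.92. *Actn2* did not pass here (log2 2.87, edgeR adjusted p = 0.060).

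Of the 20 cardiac transcription genes 14 were higher than in these eGFP-positive cells and none lower (median log2 1.39). *Myocd* had 0.427, 0.917, 2.62 and 0.480 CPM there (log2 6.02), *Tbx5* 2.24, 1.75, 3.28 and 1.03 CPM (log2 4.12), and *Mef2c* 4.38, 3.75, 6.55 and 1.85 CPM (log2 4.54). *Smarcd3* rose by log2 2.26 and *Gata5* by 3.26. *Gata4* rose by log2 1.32 and *Hand2* by 1.47.

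Of 14 SHF genes 2 were higher than in eGFP-positive cells, *Isl1* (log2 0.84) and *Foxf1* (0.75), 4 were lower and 8 did not pass (median log2 -0.42). Over all genes 9.84% were higher, near the share of this list, and 8.58% were lower. *Hand1* was higher by log2 1.0 in 3 of 4 embryos, with 541, 373, 109 and 455 CPM against 329, 132, 109 and 212 CPM, and *Bmp4* by 0.85. With cells chosen on 2000 UMIs, which left out late E7.5 control replicate 1, *Hand1* (log2 -0.59), *Bmp4* (-0.76) and *Foxf1* (-1.67) took the other direction. The eGFP-positive cells of that fit were also chosen on 2000 UMIs, so they could hold more than 1 rule gene among all their UMIs. *Anxa2* took a negative value without passing (-0.13, edgeR adjusted p = 0.498). *Bmp5* rose by log2 2.66, *Wnt2* by 2.84 and *Sfrp5* by 3.44, and of 20 signalling genes 11 were higher and none lower.

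From eGFP-positive to sarcomere-positive cells *Mesp1* fell by 2.45 on the log2 scale, in 4 of 4 embryos, with 121, 3.59, 2.62 and 22.2 CPM in eGFP-positive cells and 27.0, 0.746, 2.03 and 2.01 CPM in sarcomere-positive cells. The fall was smallest in E7.75 control replicate 1, where both values rest on few UMIs. Of 16 streak genes 11 were lower and *Tdgf1* was higher (log2 6.55), and 9 of 12 pluripotency genes were lower. *Cdkn1c* was higher by log2 1.82, one of 2 cell cycle genes of 16 that were higher, near the 9.84% over all genes. *Gja1* was lower by 0.57 in 4 of 4 embryos. *Kdr*, the VEGF receptor of endothelial progenitors, did not pass (log2 -1.05, edgeR adjusted p = 0.22), with 38.1, 20.8, 3.73 and 16.7 CPM against 17.5, 66.8, 54.4 and 41.5 CPM.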

How the data were processed

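The authors aligned reads to mm10, extended by the reporter sequences, with Cell Ranger 3.0.2 and deposited unnormalized UMI counts per gene and barcode for each of 15 embryos. Barcodes with under 10% mitochondrial UMIs, under 50000 UMIs and 200 to 7000 genes were retained. Groups and experiment numbers came from the labels. The rule and the gene lists were chosen with earlier results of these data known. Shares were compared by exact permutation over embryos, which are the replicates. UMI sums were tested with edgeR 4.0.16 in R 4.3.3 (TMM, filterByExpr, quasi-likelihood, Benjamini-Hochberg at 0.05), with the embryo as a replicate block where both cell sets came from the same animal, and p-values measure the spread between embryos. Fits were tested on simulated data. CPM are UMIs per 1000000 UMIs of a summed set. No doublet caller was run. Each sequence comes from RefSeq tables.

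Besides the rule genes, the reporters and *Mesp1*, the text names up to 5 called genes per list and direction, genes whose role it states, and, outside the lists, the 10 largest called changes per direction that had one sign in every embryo and 20 CPM. Alternatives were 3 or 5 rule genes, 6300 genes as the limit, 2000 UMIs per cell, cells with 3 markers of another type left out, no filter, no block, DESeq2 1.42.0, experiment as a covariate, all control embryos and each embryo left out. Cells chosen on 2000 UMIs, mixed cells without the parietal list and experiment 7 alone were added after seeing the data. Results for some genes are not reported here.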

Additional observations from a re-analysis of the deposited data

Results flagged for a closer look

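Among 34 groups of 4 or more embryos examined for a sample far from the others, 3 values stood out, and chance flags about 1 in 20 groups. *Myl4* over all retained cells was at 2.09 CPM in E6.5 control replicate 1, against 0.637 to 0.989 CPM in the other early controls. *Csrp3* was at 0.0944 CPM (9 UMIs) in the same embryo and at 0 in the other early controls, whose libraries held fewer UMIs. E6.5 control replicate 1 was the sole early control at E6.5 and of experiment 7. *Nkx2-5* was at 1.47 CPM in E6.0 control replicate 1, against 0.255 to 0.525 CPM in the other early controls.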

How the results depend on the processing

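Depth limits which cells pass, and the absence of a rule gene in shallow cells was not detectable as such. The lower KO share kept its direction in every alternative run. Its difference was -1.55 points (exact permutation p = 0.042) with 6300 genes as the limit, -3.18 with 3 rule genes, -0.886 with 5 (exact permutation p = 0.18), -0.537 on thinned cells (exact permutation p = 0.50), and -2.35 to -0.586 with each embryo left out, passing without late E6.5 control replicate 1 (-1.80, exact permutation p = 0.033). The late excess over earlier controls passed in all alternatives but experiment 7 alone (2.21, and 0.492 on thinned cells, exact permutation p = 0.20 and 0.33), and was 2.80 to 3.76 with each embryo left out.

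Against all other cells, 4635 genes were called, against 2163 on thinned cells and 2071 to 4769 with each embryo left out (2071 without late E7.5 control replicate 2 and 2363 without E7.75 control replicate 2). Against eGFP-positive cells the count was 2585, with 931 on thinned cells and 783 to 2451 with each left out (783 and 836 without the same embryos). Without the replicate block, which pairs both cell sets of an embryo, 1279 and 147 were called, and 68 of 154 and 102 of 119 named genes no longer passed. Of the calls against eGFP-positive cells 53.4% were higher, against 63.2% without mixed cells and 83.0% without the block. With all control embryos of 10 or more cells per set, 37.5% of the calls against other cells were higher, against 48.2%. For the whole late KO embryo, 6 genes were called, 129 by DESeq2, 1 with experiment as a covariate and 2 to 338 with each late control left out (338 without E7.75 control replicate 1, 2 without E7.75 control replicate 2).

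Some named genes changed direction, not all of them past the threshold, and the cause was not tested. Choosing cells on 2000 UMIs left out late E7.5 control replicate 1, where no cell passed. Both sets were chosen anew there, so cells that passed only on all their UMIs could lie in the reference. *Hbb-y*, *Eomes*, *Ttr*, *Rbp4* and *Cubn* are among the markers used to leave out mixed cells, so their values there are tied to that choice. Against other cells, with cells chosen on 2000 UMIs, the log2 values were *Fn1* -0.30, *Hand1* -0.20, *Dlk1* -0.94, *Nid1* -0.97, *Fgf10* -0.10, *Krt18* -0.22, *Tbx1* -0.97, *Vegfa* -0.09, *Ahnak* -0.27, *Tdo2* -0.50, *Nr2f2* -0.28, *Cdh11* -0.81 and *Foxf1* -0.75, and without mixed cells *Hbb-y* 0.20 and *Eomes* 0.04. Against eGFP-positive cells chosen likewise, they were *Hand1* -0.59, *Bmp4* -0.76, *Krt18* -0.34, *Itga5* -0.02, *Vegfa* -0.47, *Lama1* -0.22, *Ahnak* -0.88, *Vim* -0.10, *Tdo2* -0.59, *Slc2a1* -0.51, *Utf1* 0.06, *Foxf1* -1.67 and *Anxa2* -0.13. Without mixed cells they were *Vegfa* -0.12, *Ttr* 0.11, *Rbp4* 0.02 and *Foxf1* -0.19, without use of the parietal list *Cubn* 0.31, and with all control embryos *Lama1* -0.02.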

Other observations

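The levels of some genes differed between late controls in both cell sets. *Lefty2*, an antagonist of Nodal, was at 3.86, 22.3, 59.6 and 0.109 CPM in sarcomere-positive cells of late E7.5 control replicates 1 and 2 and E7.75 control replicates 1 and 2, and at 10.2, 5.72, 15.4 and 0.169 CPM in the other cells (log2 1.26, edgeR adjusted p = 0.099). E7.75 control replicate 2 was thus low in both sets. *Foxf1* was at 193 and 148 CPM in the sarcomere-positive cells of the experiment 7 embryos (late E7.5 control replicate 1 and E7.75 control replicate 2) and at 16.5 and 2.71 CPM in those of experiments 4 and 5, and *Smarcd3* at 137 and 156 against 47.5 and 54.2 CPM. The other cells showed the same order, *Foxf1* with 47.6 and 51.2 against 5.85 and 3.83 CPM. Experiment, depth and embryo cannot be told apart here. *Lefty2* was named after its values were seen.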
